A study of Mus musculus with 14 samples.

Results

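RNA was compared between Thy-1-CD24medCD49fhigh and CD24medCD49fmed cells, 2 basal populations of the mouse mammary gland, in 6 of the 14 arrays of the series (3 arrays each). The 6 arrays were taken by their titles, which give the sorted phenotype and a replicate number, and the arrays with the same number were treated as a pair. Epithelial cells came from the mammary glands of virgin female C57BL/6 mice, 6 to 8 weeks old by the labels, and neither a transgene nor a treatment is named. Glands were dissociated with collagenase, hyaluronidase, dispase and trypsin. Cells were stained for the lineage antigens CD45, CD31 and Ter119 and for CD49f, CD24 and Thy-1, and each phenotype was sorted in 2 rounds. The paper's methods also list an antibody to CD140α. RNA was amplified and hybridized to Affymetrix mouse genome arrays. The paper uses the name CD24lowCD49fmed for the CD24medCD49fmed group and calls it myoepithelial, and this group was not gated on Thy-1. The other 8 arrays held Thy-1+CD24medCD49fhigh cells (3 arrays) and the luminal populations CD24highCD49fmed (3 arrays) and CD24medCD49f-/low (2 arrays). It is not stated in the labels if each replicate was its own mouse or a pool of glands, so p-values measure the spread between these arrays, which may be partly technical.

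The mammary duct has an inner layer of luminal cells and an outer, basal layer of contractile myoepithelial cells that lie on the basement membrane. CD49f is integrin alpha 6, a laminin receptor, and cells with much of it include those that rebuild a gland on transplantation. Myoepithelial cells contract in response to oxytocin and secrete laminins, while cells that divide switch on a large set of spindle, kinetochore and cytokinesis genes in G2 and mitosis. Small vessels with their pericytes, and fat, lie close to the ducts and can accompany sorted cells.

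Each value is a log2 signal from which the mean over the 14 arrays had been subtracted, so a value of 1 lies at 2-fold above the mean of the series for that gene, and levels cannot be compared between genes. A difference is Thy-1-CD24medCD49fhigh minus CD24medCD49fmed, as the mean of 3 pairs. The test was limma with the replicate number as a block, two-sided, with Benjamini-Hochberg adjustment over 7190 rows (6044 named genes and 1146 unnamed or ambiguous probe sets). Of these rows 0 passed an adjusted p of 0.05 with the block (0.0%), and 0 passed without it. No gene named below is therefore called changed, and directions are those of the measured values. At an unadjusted p under 0.05 the paired fit held 119 rows that were higher (1.66%) and 167 that were lower (2.32%), against 49 (0.682%) and 35 (0.487%) without the block. The split moved with the scaling of the arrays. It was 200 higher and 180 lower with array medians set to 0, and quantile normalization gave 265 and 186. Rank products at a p under 0.01 without adjustment, the approach of the study's methods, gave 89 higher (1.24%) and 73 lower (1.02%). The median over all rows was -0.07, with 0.22, -0.37 and 0.01 in pairs 1, 2 and 3.

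The sorted cells carried basal identity in each array. All 9 of the basal markers checked, among them the basal keratin gene Krt14, the p63 gene Trp63 and Acta2, an actin gene of contractile cells, were higher in every one of the 6 arrays than in every luminal array. Trp63 measured 1.75, 1.38 and 1.38 in Thy-1-CD24medCD49fhigh replicates 1, 2 and 3 and 1.61, 2.03 and 1.77 in CD24medCD49fmed replicates 1, 2 and 3. One of the 6 arrays stood apart in the basal program. Thy-1-CD24medCD49fhigh replicate 2 had a median of 0.71 over 33 basal and myoepithelial genes, while the other 5 arrays lay between 1.60 and 1.79. Thy-1+CD24medCD49fhigh cells, outside the comparison, had 0.61, 1.63 and 0.11. Thy1, the gene of the antigen used in the sort, was -0.77, -0.10 and -0.36 in Thy-1-CD24medCD49fhigh cells and 0.73, -0.46 and 0.12 in CD24medCD49fmed cells, with values of both groups interleaved.

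Nusap1, which encodes a microtubule-binding protein of the mitotic spindle, had the smallest p of all rows. Its values were 1.01, 1.84 and 1.52 in Thy-1-CD24medCD49fhigh cells and -0.84, 0.03 and -0.39 in CD24medCD49fmed cells. The 3 pairs differed by nearly the same amount, and the Thy-1-CD24medCD49fhigh arrays lay above each of the other 11 arrays of the series. The difference was 1.85 (SE 0.31, 3.61-fold), with a limma unadjusted p of 6.01e-05 and an adjusted p of 0.3217.

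Mitotic genes as a group were higher in Thy-1-CD24medCD49fhigh cells. All 46 measured genes of the mitosis and spindle list had a difference above 0, where 41.2% of all rows did, and their median was 0.73. The difference was above 0 in all 3 pairs for 38 genes (82.6% of the list, 11.6% of all rows), and 18 genes did not overlap between the groups (39.1%, against 1.81% of all rows). At an unadjusted limma p under 0.05 there were 24 (52.2%), and 12 of the 40 rows with a difference of 1 or more (0.556% of all rows) belonged to this list. The median over the list was 1.10, 0.66 and 0.67 in pairs 1, 2 and 3, and 44 to 46 of the 46 genes stayed above 0 when each pair was left out in turn.

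**Figure D1:**
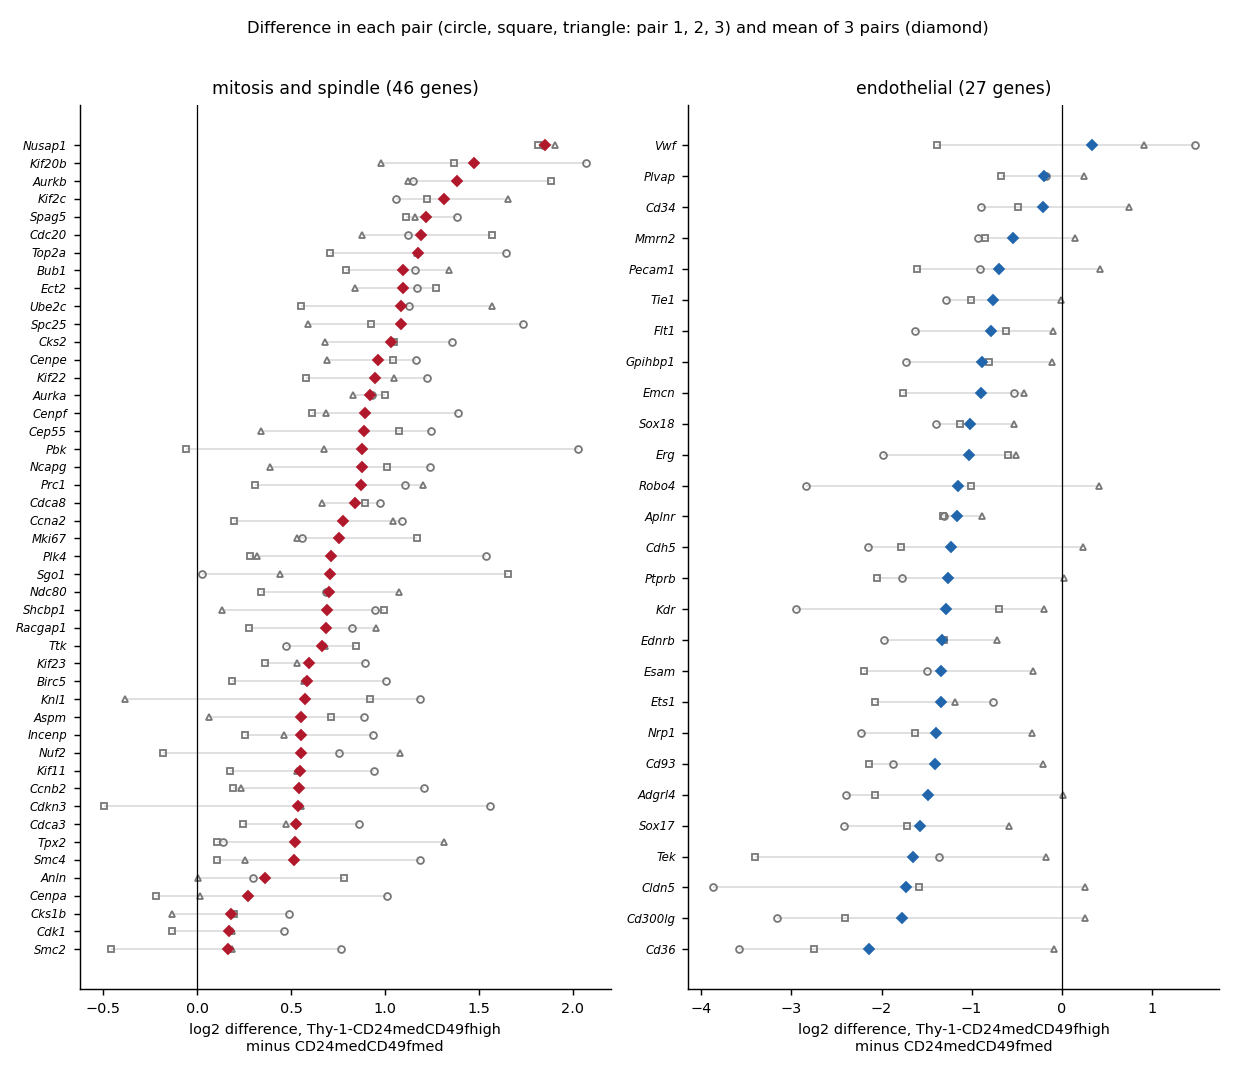
Log2 difference (horizontal axis, Thy-1-CD24medCD49fhigh minus CD24medCD49fmed) of each measured gene of the mitosis and spindle list (left, 46 genes) and the endothelial list (right, 27 genes). Open circles, squares and triangles are pairs 1, 2 and 3, grey lines span them, and diamonds are the mean of 3 pairs. Mitotic genes lay to the right of 0 in all 3 pairs for 38 of 46, while the endothelial differences of pair 3 lay near 0 (median -0.10) and those of pairs 1 and 2 far to the left (medians -1.73 and -1.58).

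The leading members are known to act at different steps of division. Kif20b, a kinesin of cytokinesis, was 0.82, 1.63 and 0.81 in Thy-1-CD24medCD49fhigh cells and -1.25, 0.26 and -0.17 in CD24medCD49fmed cells (difference 1.47, SE 0.33). Aurkb, the kinase of the chromosomal passenger complex, was 0.08, 2.03 and 1.28 against -1.07, 0.14 and 0.16 (1.38, SE 0.32). The groups were separate for Kif20b but overlapped for Aurkb, through the low replicate 1 of Thy-1-CD24medCD49fhigh cells. Kif2c, a kinesin that shortens microtubules at kinetochores, was 0.11, 1.35 and 1.50 against -0.95, 0.13 and -0.16 (1.31, SE 0.31). Spag5, also named astrin, which holds kinetochores to the spindle, was 0.52, 1.63 and 1.30 against -0.86, 0.51 and 0.15 (1.22, SE 0.31). In all 3 pairs these genes were higher in the Thy-1-CD24medCD49fhigh array, with limma adjusted p = 0.7532 for each of the 4.

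Regulators of the exit from mitosis showed the same direction. Cdc20, the activator of the anaphase-promoting complex, was 0.74, 2.23 and 1.31 in Thy-1-CD24medCD49fhigh cells and -0.38, 0.66 and 0.43 in CD24medCD49fmed cells (difference 1.19). Ube2c, the ubiquitin-conjugating enzyme of that complex, was 0.46, 0.41 and 1.64 against -0.66, -0.15 and 0.07 (1.08). The checkpoint kinase gene Bub1 was 0.69, 1.17 and 1.59 against -0.47, 0.38 and 0.25 (1.10). For these 3 genes every Thy-1-CD24medCD49fhigh array was above every CD24medCD49fmed array. Top2a, which untangles sister chromatids, had a difference of 1.17, Ect2, which starts the cleavage furrow, of 1.10, and the kinetochore gene Cenpf of 0.90 (0.56 and 1.23 by its 2 probe sets). Mki67, the Ki-67 proliferation antigen gene, had 0.75 and Cdk1, the mitotic kinase gene, 0.17, near the low end of the list (lowest 0.16).

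Genes of DNA replication, which is copied before mitosis, differed less. Of 23 measured, 21 were above 0 with a median of 0.37, and 2 had an unadjusted limma p under 0.05 (8.7%, against 1.66% of all rows). The largest were Gmnn, the inhibitor of origin licensing (0.73), Prim2, a primase subunit (0.73), and Mcm4, a subunit of the replicative helicase (0.67). The list's median was 0.55, 0.18 and 0.33 in pairs 1, 2 and 3.

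Promoter sequences of the mitotic genes are shown because genes of G2 and mitosis are known to share a CCAAT box, bound by NF-Y, and a cell cycle homology region, often TTTGAA, close to their start. RefSeq windows (GRCm38.p6) held the 250 bases before the start of 39 of the 46 genes, in 42 windows. CCAAT, on either strand, was in 30 of the 42 (71.4%), against 33.8% of all 32851 windows and 34.4% of those of the 6044 named genes in the table. TTTGAA, on either strand, was in 17 (40.5%), against 16.0% and 10.6%, and both motifs were in 15 (35.7%), against 5.55% and 3.81%. Matches of the 2 motifs can share a base at their ends. The 13 endothelial genes with a window had CCAAT in 7 of 15 windows (46.7%), TTTGAA in 3 and both in 2 (13.3%). These shares follow from the genes on each list and not from the array values, so they say nothing on the difference between the groups. Letters alone do not show a bound site.

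Windows were taken for Nusap1, Kif20b, Kif2c and Spag5, which are among the mitotic genes with the largest differences. Aurkb (1.38) has a larger difference than Kif2c and Spag5, but no window was taken for it. Nusap1 (chr2:119618048-119618297, + strand) and Kif20b held neither motif in this window. Kif2c (chr4:117178773-117179022, - strand) held 1 TTTGAA match and Spag5 (chr11:78301341-78301590, + strand) 1 CCAAT match. Cdc20 and Top2a (chr11:99024190-99024439, - strand) were picked, in order of difference, because they held both motifs. They had 2 and 6 CCAAT matches and 1 and 2 TTTGAA matches. Each sequence runs 5′ to 3′ on the strand of the gene and ends at the base before the start, and capitals mark the matches of either motif on either strand.
Nusap1: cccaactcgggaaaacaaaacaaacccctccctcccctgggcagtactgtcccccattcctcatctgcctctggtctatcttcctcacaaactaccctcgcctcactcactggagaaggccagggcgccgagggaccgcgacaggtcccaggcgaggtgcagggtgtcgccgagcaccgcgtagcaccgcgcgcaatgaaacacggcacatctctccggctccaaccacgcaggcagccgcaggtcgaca
Kif2c: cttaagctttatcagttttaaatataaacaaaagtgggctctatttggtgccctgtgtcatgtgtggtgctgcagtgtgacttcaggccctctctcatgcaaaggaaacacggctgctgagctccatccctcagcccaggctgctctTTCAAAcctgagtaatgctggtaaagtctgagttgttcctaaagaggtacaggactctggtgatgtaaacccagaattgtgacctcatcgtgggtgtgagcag
Spag5: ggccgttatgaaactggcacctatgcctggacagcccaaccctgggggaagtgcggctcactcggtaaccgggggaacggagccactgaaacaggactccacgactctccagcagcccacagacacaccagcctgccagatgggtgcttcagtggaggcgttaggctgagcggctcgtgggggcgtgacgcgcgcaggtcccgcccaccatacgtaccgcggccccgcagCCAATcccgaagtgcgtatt
Top2a: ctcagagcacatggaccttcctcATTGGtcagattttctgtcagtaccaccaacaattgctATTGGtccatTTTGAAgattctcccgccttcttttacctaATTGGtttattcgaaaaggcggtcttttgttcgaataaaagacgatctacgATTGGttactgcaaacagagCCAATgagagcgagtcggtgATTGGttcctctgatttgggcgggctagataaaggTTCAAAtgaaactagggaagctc

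In the other populations the mitotic list was lower than in Thy-1-CD24medCD49fhigh cells. Its median in single arrays was 0.54, 0.95 and 0.93 in Thy-1-CD24medCD49fhigh cells and -0.46, 0.38 and 0.23 in CD24medCD49fmed cells. It was -0.73, -0.18 and 0.26 in Thy-1+CD24medCD49fhigh cells, -0.21, 0.45 and 0.51 in CD24highCD49fmed cells and -1.38 and -1.22 in CD24medCD49f-/low cells. Every Thy-1-CD24medCD49fhigh median was above that of each other array, by a small margin for replicate 1, and this order was not tested.

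**Figure D2:**
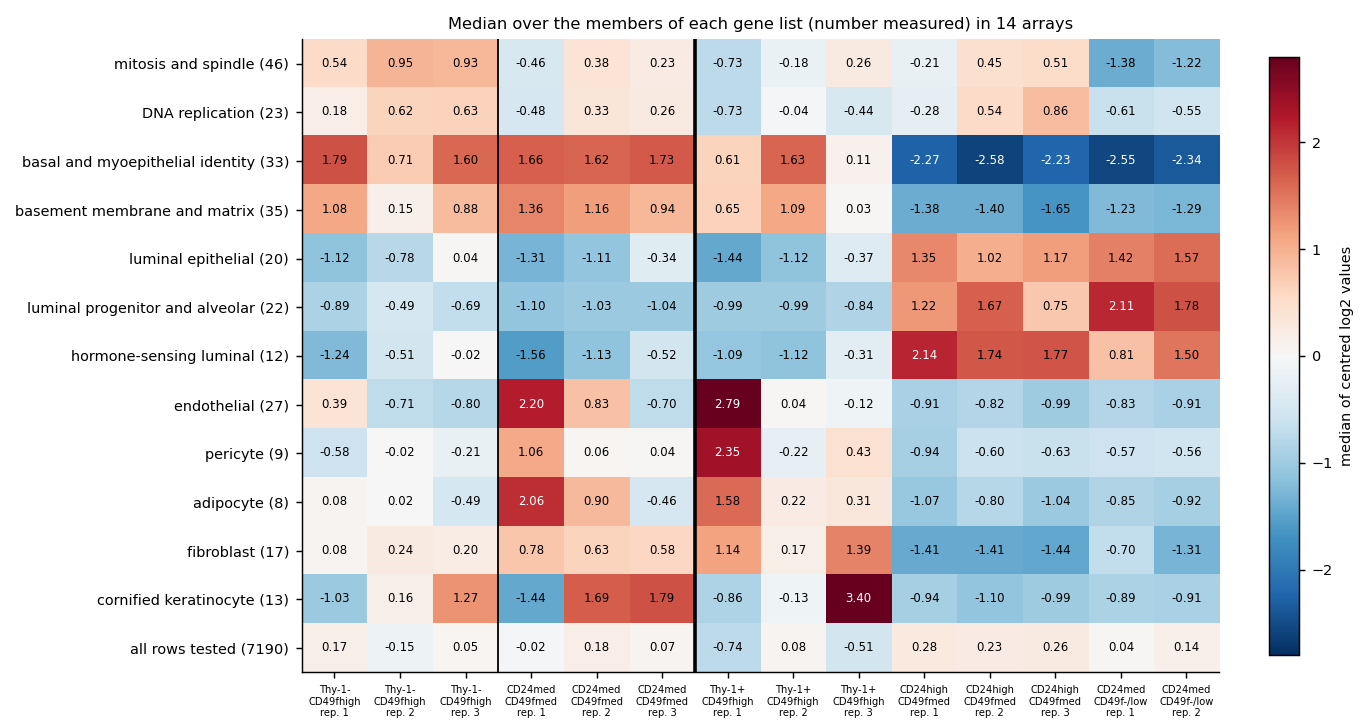
Median of the centred log2 values over the members of 12 gene lists and over all rows (rows of the plot, with the number of genes measured) in the 14 arrays (columns). Red is above and blue below the mean of the series. Endothelial, pericyte and adipocyte genes were high in replicate 1 of CD24medCD49fmed (2.20, 1.06 and 2.06) and of Thy-1+CD24medCD49fhigh cells (2.79, 2.35 and 1.58), and basal genes were lower in Thy-1-CD24medCD49fhigh replicate 2 (0.71) and in Thy-1+CD24medCD49fhigh replicates 1 and 3 (0.61 and 0.11) than in the other 6 basal arrays.

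Il33 encodes an alarmin cytokine of the IL-1 family that epithelial cells keep in the nucleus. It was -0.13, 1.73 and 0.74 in Thy-1-CD24medCD49fhigh cells and -1.95, -0.76 and -0.55 in CD24medCD49fmed cells. The groups did not overlap, and the difference was 1.87 (SE 0.34, limma unadjusted p = 0.000134, adjusted p = 0.3217), the largest positive value of all rows. CD24highCD49fmed arrays were at 2.13, 0.82 and 1.23. Of 13 cytokines and chemokines measured, 8 were above 0 (median 0.11), and 6 without replicate 1 (median -0.055). At an unadjusted limma p under 0.05, 3 were higher (23.1%, against 1.66% of all rows) and 2 lower (15.4%, against 2.32%). Cxcl15, a chemokine of mucosal epithelia, was 1.27 higher (0.63 and 1.91 by its 2 probe sets). Cxcl12, the ligand of CXCR4, had a difference of -0.81 (-1.22 and -0.40 by its 2 probe sets) and Il6, a cytokine of the acute phase, of -0.73.

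As a list, luminal genes were lower in both basal groups than in the luminal arrays, and somewhat less low in Thy-1-CD24medCD49fhigh cells. Of 20 luminal epithelial genes 17 were above 0 (85.0%, against 41.2% of all rows, median 0.29), 9 in all 3 pairs (45.0%, against 11.6%), and 2 had an unadjusted limma p under 0.05 (1.66% of all rows were higher at it). Krt18, a luminal keratin, was -0.85, -0.80 and 0.43 in Thy-1-CD24medCD49fhigh cells and -1.88, -1.12 and -0.23 in CD24medCD49fmed cells, where the 5 luminal arrays lay between 1.32 and 1.49. Krt8, its partner, had a difference of 0.36, Krt19 of 0.68, Krt7 of 0.71 and Wfdc2, a secreted protease inhibitor gene, of 0.89. Krt19 was not higher in pair 2 (-1.79 in Thy-1-CD24medCD49fhigh and -1.67 in CD24medCD49fmed cells). In pair 2 alone 11 of the 20 genes were above 0 (55.0%, against 30.7% of all rows). The 3 genes below 0 in the mean of 3 pairs went no lower than -0.10. Replicate 3 was the highest array for Krt18 and Krt19 in both groups, with Krt19 at 1.15 in Thy-1-CD24medCD49fhigh and 0.54 in CD24medCD49fmed cells. The luminal list's median was 0.04 and -0.34 in these 2 replicates and -0.78 or lower in the other 4 arrays.

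Milk and alveolar genes gave 7 of 22 that did not overlap (31.8%, against 1.81%), all higher in Thy-1-CD24medCD49fhigh cells. Wfdc18, a secreted protein gene of alveolar cells, was -1.37, -0.23 and 0.04 in Thy-1-CD24medCD49fhigh cells and -2.42, -1.64 and -2.03 in CD24medCD49fmed cells (difference 1.51, SE 0.33, limma adjusted p = 0.7532). Csn3, which encodes kappa casein, was -0.80, -0.15 and -0.04 against -1.53, -1.11 and -1.06 (0.90). The other 5, named after their values were seen, were the iron-binding milk protein gene Ltf (0.73), the lactose synthase subunit gene Lalba (0.38), Btn1a1 of the milk fat globule membrane (0.40), Tnfaip2 (0.51) and Plet1 (0.68). By probe set, Btn1a1 ran from 0.04 to 0.92 and Plet1 from 0.12 to 0.98. In CD24highCD49fmed arrays Csn3 was 1.85 to 2.55 and Wfdc18 1.83 to 2.65, above all 6 basal arrays. The median of the 22 genes was 0.03, 0.55 and 0.42 in pairs 1, 2 and 3. In pair 1 alone 12 of 22 were above 0 (54.5%, against 70.1% of all rows). In the mean of 3 pairs 17 were above 0 (77.3%, against 41.2% of all rows), with a median of 0.28, and 0.53 without replicate 1. An exception was Glycam1, a mucin-like gene of milk that is also known from the venules of lymph nodes, at 2.07, -1.41 and -1.82 against 4.38, 3.06 and -1.80 (-2.26). Its high arrays were the replicates 1 and 2 in which endothelial genes were high.

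Hormone-sensing genes had 9 of 12 above 0 (75.0%, against 41.2% of all rows, median 0.42) and 4 at an unadjusted limma p under 0.05 (33.3%, against 1.66%). Foxa1, the pioneer factor of the estrogen receptor, was -2.30, -0.13 and 0.10 in Thy-1-CD24medCD49fhigh cells and -3.54, -1.50 and -0.87 in CD24medCD49fmed cells (1.19, SE 0.31, limma adjusted p = 0.7532). Within each pair it was higher in the Thy-1-CD24medCD49fhigh array, although the replicates of a group differed by more than the pairs did. Mlph, which tethers vesicles to actin, had a difference of 0.97 (0.43 and 1.51 by its 2 probe sets). Stc2, a secreted glycoprotein gene, had 0.82, Prom1, the CD133 gene, 0.82 and Esr1, the estrogen receptor alpha gene, 0.47. The other way went 3 of the 12 genes, the lowest at -0.50. Of the list 1 gene was lower in all 3 pairs (8.33%, against 9.76% of all rows), and 0 genes separated the groups.

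Ido1, a tryptophan-degrading enzyme gene, was -0.89, -1.41 and 0.26 in Thy-1-CD24medCD49fhigh cells and -2.87, -2.96 and -0.95 in CD24medCD49fmed cells (1.58, SE 0.32, limma adjusted p = 0.6256). It is also a target of interferon. Of 10 interferon response genes Ido1 and Usp18, a protease gene that acts on ISG15, were above 0 in the mean of 3 pairs, and the list's median was -0.24. By pairs it was -0.42, -0.57 and 0.37, with 9 of 10 above 0 in pair 3. The antiviral gene Rsad2 had -1.21. Bex1, an adaptor gene of neurotrophin receptor signalling, was 0.24, 0.83 and 0.62 against -1.64, -0.25 and -0.28 (1.29). The RNA-binding protein gene Mbnl3 differed by 1.21 and Smim22, a small membrane protein gene, by 1.26. For Bex1 and Mbnl3 the groups did not overlap.

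**Figure D3:**
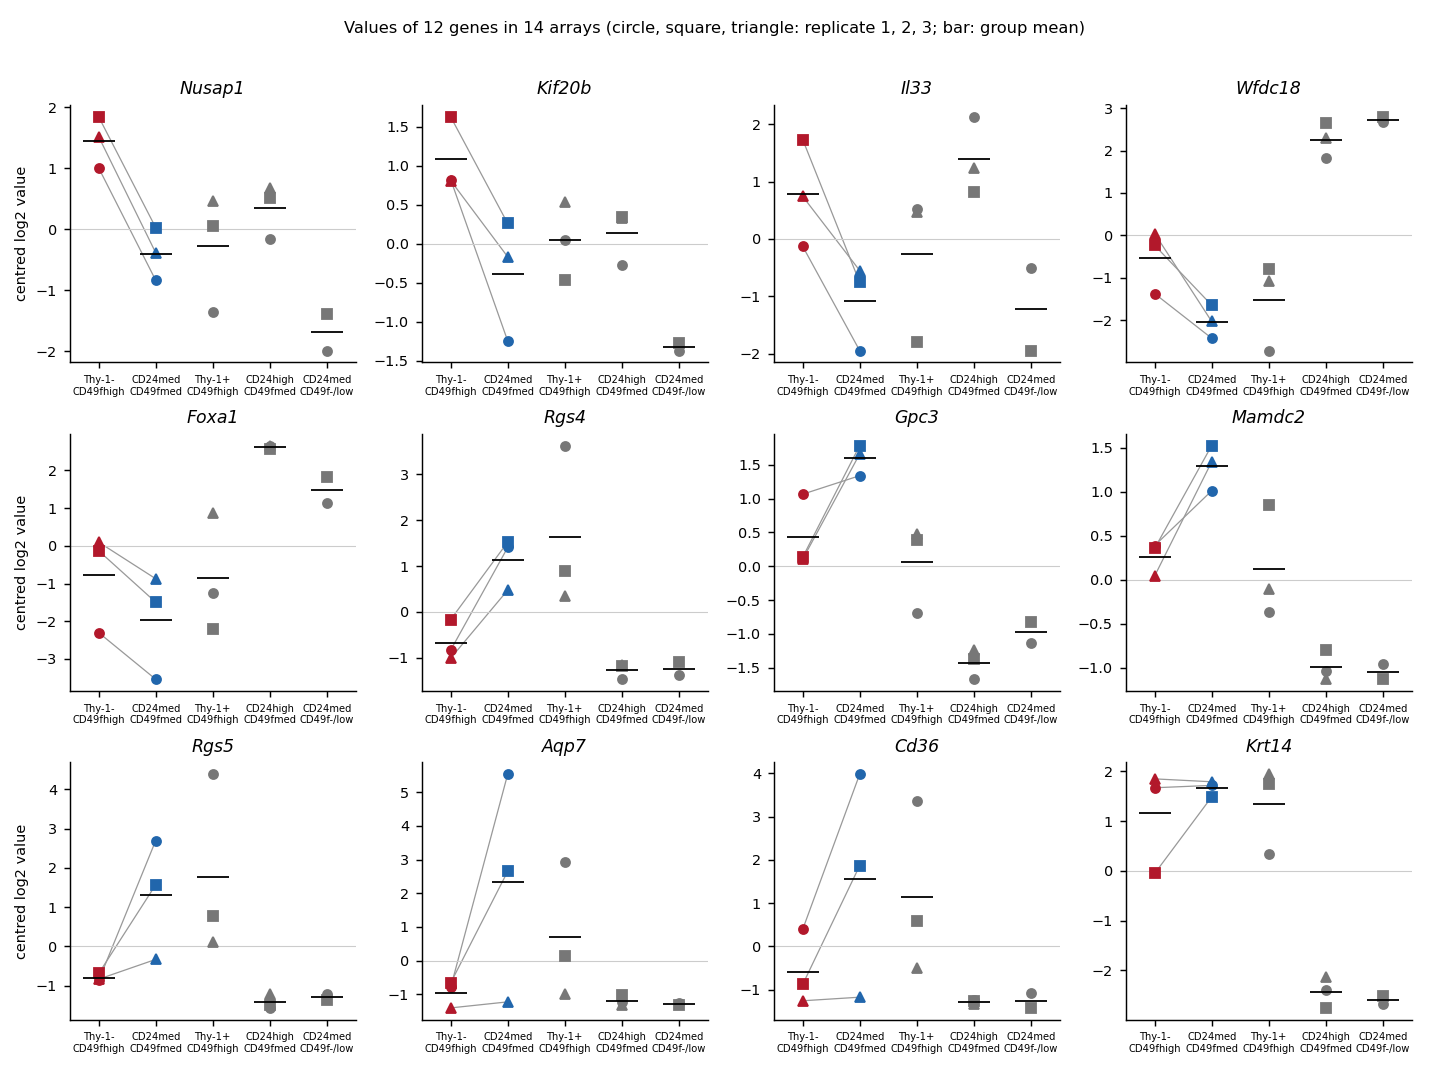
Centred log2 values (vertical axes) of 12 genes in 14 arrays, with the 5 sorted populations on the horizontal axis. Circles, squares and triangles are replicates 1, 2 and 3, grey lines join the pairs, and bars are group means. Nusap1, Kif20b, Il33 and Wfdc18 were higher in each Thy-1-CD24medCD49fhigh array than in any CD24medCD49fmed array, Rgs4, Gpc3, Mamdc2 and Rgs5 were lower in each, and Aqp7 and Cd36 separated the groups in replicates 1 and 2 but not 3.

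Genes higher in CD24medCD49fmed cells were led by Rgs4, a GTPase activator that ends G protein signals in smooth muscle, heart and nerve. It was -0.83, -0.17 and -1.01 in Thy-1-CD24medCD49fhigh cells and 1.40, 1.52 and 0.47 in CD24medCD49fmed cells. The groups were separated by a gap of 0.64, and the difference was -1.80 (SE 0.32, limma unadjusted p = 0.000115, adjusted p = 0.3217). Rgs5, its close relative and a marker of pericytes, was -0.87, -0.69 and -0.83 against 2.70, 1.57 and -0.33 (-2.11, SE 0.48, limma adjusted p = 0.7532). Its 4 probe sets ran from -2.74 to -0.97. The Thy-1-CD24medCD49fhigh arrays were alike for Rgs5 while CD24medCD49fmed cells ranged widely. Thy-1+CD24medCD49fhigh replicate 1 was the highest array for both, with 3.62 for Rgs4 and 4.39 for Rgs5. Of 9 RGS genes measured, 5 were below 0 and these 2 were lower at an unadjusted limma p under 0.05 (22.2%, against 2.32%).

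Gpc3, a glypican that carries heparan sulfate at the cell surface, was 1.06, 0.13 and 0.10 in Thy-1-CD24medCD49fhigh cells and 1.34, 1.78 and 1.66 in CD24medCD49fmed cells. No array of one group reached the other, and the difference was -1.16 (SE 0.36, limma unadjusted p = 0.00699, adjusted p = 0.7808). Replicate 1 gave the smallest of the 3 pair differences, -0.27. Of 14 heparan sulfate proteoglycans and enzymes, 11 were below 0 (median -0.33, with 0.30, -0.86 and -0.13 in the pairs), and Gpc3 alone had an unadjusted limma p under 0.05 (7.14%, against 2.32%). Without replicate 2 the list turned, with 10 of 14 above 0 (median 0.033). Mamdc2, a matrix proteoglycan gene, was 0.39, 0.36 and 0.04 against 1.01, 1.53 and 1.34 (-1.03).

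Endothelial genes were lower in Thy-1-CD24medCD49fhigh cells in pairs 1 and 2. Of 27 measured, 26 were below 0 (58.8% of all rows were) with a median of -1.23, and 22 were lower at an unadjusted limma p under 0.05 (81.5%, against 2.32%). In 16 the difference was below 0 in all 3 pairs (59.3%, against 9.76%), but no gene of the list separated the groups (1.93% of all rows did). The median was -1.73 in pair 1, -1.58 in pair 2 and -0.10 in pair 3. Of the 89 rows lower by 1 or more (1.24% of all rows), 18 were on this list. In bulk RNA, fewer cells of a type and less RNA per cell cannot be told apart.

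Single endothelial genes showed where the list's difference lay. Sox17, a transcription factor of arteries, was -0.22, 0.00 and -0.91 in Thy-1-CD24medCD49fhigh cells and 2.20, 1.72 and -0.32 in CD24medCD49fmed cells (-1.57, SE 0.38). Tek, the angiopoietin receptor gene, was 1.69, -1.13 and -1.78 against 3.05, 2.28 and -1.60 (-1.65). Cldn5, the tight junction gene of endothelium, was -0.44, -0.75 and -0.53 against 3.44, 0.83 and -0.79 (-1.73). In replicate 3 both groups were low for Tek and Cldn5, close to the luminal arrays. Pecam1, the gene of CD31, which the sort stained as a lineage antigen, was 1.19, -0.77 and -0.80 against 2.11, 0.84 and -1.22 (-0.70), and Cdh5, the VE-cadherin gene, had -1.23. Ednrb, the endothelin receptor B gene, had -1.33 and Ets1, an angiogenic transcription factor gene, -1.34 (-2.08 and -0.59 by its 2 probe sets). Aplnr, the apelin receptor gene, had -1.17 (-1.93 and -0.40 by its 2 probe sets) and Nrp1, a coreceptor gene of VEGF, -1.39. Cd300lg, an endothelial mucin receptor gene, had -1.77. The 1 gene above 0 was Vwf, the von Willebrand factor gene, at 0.34.

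Adipocyte and fatty acid genes followed the same arrays. Aqp7, the glycerol channel of fat cells and capillaries, was -0.80, -0.66 and -1.41 in Thy-1-CD24medCD49fhigh cells and 5.54, 2.65 and -1.23 in CD24medCD49fmed cells. Its difference of -3.28 (SE 0.79, limma adjusted p = 0.7532) was the largest negative value of all rows and came from replicates 1 and 2. Cd36, a fatty acid transporter of capillaries and fat that is on the adipocyte and the endothelial list, was 0.39, -0.88 and -1.26 against 3.98, 1.87 and -1.18 (-2.14). Fabp4, a fatty acid carrier of the same cells, was 1.17, 0.10 and -1.21 against 3.22, 1.93 and -0.45 (-1.55, SE 0.35). Of 8 adipocyte genes 7 were below 0 (58.8% of all rows were), with a median of -0.93 that was -2.27, -0.75 and -0.03 in the pairs and -0.35 without replicate 1. There were 4 lower at an unadjusted limma p under 0.05 (against 2.32% of all rows), and Lep, the leptin gene, was at 0.11. Car3, a carbonic anhydrase gene of fat and muscle, had a difference of -1.01 that was -2.49 in pair 1. Adipoq and Plin1, markers of mature fat cells, had no row among the named genes, so no value can be given for them.

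Pericyte genes were below 0 in 9 of 9 (58.8% of all rows were), with a median of -0.33 that was -1.37, -0.01 and -0.25 in the pairs. Without replicate 1 there were 5 of 9 below 0 (median -0.13). For 3 genes the groups did not overlap (33.3%, against 1.93% of all rows). These were Rgs4, Rgs5 and the potassium channel subunit gene Abcc9 (-0.95). Kcnj8, the channel that Abcc9 regulates, had -0.83. Over the single arrays the endothelial median was 0.39, -0.71 and -0.80 in Thy-1-CD24medCD49fhigh cells and 2.20, 0.83 and -0.70 in CD24medCD49fmed cells. Luminal arrays were between -0.99 and -0.82, so Thy-1-CD24medCD49fhigh replicates 2 and 3 and CD24medCD49fmed replicate 3 were near them. Pericyte and adipocyte medians were, of the 6 arrays, highest in the CD24medCD49fmed replicate 1 array too, at 1.06 and 2.06. The part of these cell types in the differences of Rgs4, Rgs5 and Aqp7 was not tested. In replicate 3, where endothelial medians were close, the difference was -1.48 for Rgs4, -0.50 for Rgs5 and -0.18 for Aqp7.

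**Figure D4:**
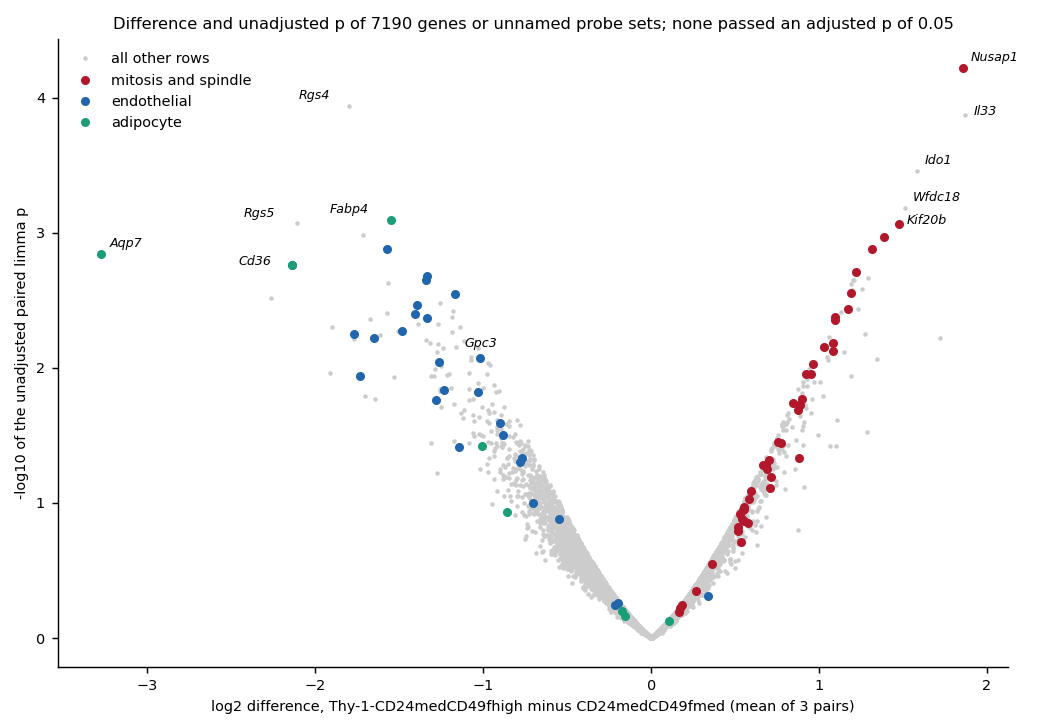
Mean log2 difference of 3 pairs (horizontal axis) and -log10 of the unadjusted paired limma p (vertical axis) for 7190 genes or unnamed probe sets. Red, blue and green points are the mitosis and spindle, endothelial and adipocyte lists. All 46 mitotic genes lay right of 0, 26 of 27 endothelial genes left of it, and no point passed an adjusted p of 0.05.

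Matrix and basement membrane genes were below 0 in 32 of 35 (91.4%, against 58.8%), with a median of -0.28. By pairs the median was -0.19, -0.93 and 0.03, and without replicate 2 it was -0.07, with 21 of 35 below 0. Fbln2, a fibulin of basement membranes, was 2.06, -0.88 and 1.84 in Thy-1-CD24medCD49fhigh cells and 2.62, 1.68 and 2.68 in CD24medCD49fmed cells (-1.32). Timp4, a metalloproteinase inhibitor gene, was -1.33, -0.70 and -0.76 against 2.03, 0.63 and -0.42 (-1.68), and Sparcl1, a matricellular gene, had -1.31. Besides these last 2, the laminin genes Lama4 (-0.66), Lamb1 (-0.33) and Lamc1 (-0.77), named after their values were seen, made up the 5 that did not overlap (14.3%, against 1.93%). Lamb1 ran from -0.84 to -0.07 by its 3 probe sets.

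Basal genes did not set the groups apart in all pairs. Of 33, 26 were below 0 with a median of -0.19, but the pairs gave 0.20, -0.82 and 0.07, and without replicate 2 the median was 0.14 with 26 above 0. Krt14 was 1.67, -0.05 and 1.85 in Thy-1-CD24medCD49fhigh cells and 1.72, 1.48 and 1.79 in CD24medCD49fmed cells. Krt5, its partner keratin, was 2.24, -0.57 and 2.57 against 2.23, 1.21 and 2.41, and Krt17, a keratin of basal and stressed epithelium, 2.78, -0.22 and 2.79 against 2.29, 2.30 and 2.96. Myl9, the myosin light chain of smooth muscle, was 2.90, -0.91 and 2.32 against 2.58, 1.92 and 2.41. Of the 6 arrays, Thy-1-CD24medCD49fhigh replicate 2 was the low one for all 4, and the values were close to CD24medCD49fmed cells in replicates 1 and 3. Itgb1, the beta 1 integrin gene, was below its partner in each pair (0.78, -1.44 and -0.18 against 1.12, 0.45 and 0.64, difference -1.02).

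Epidermal genes of cornified keratinocytes varied more between replicates than between the groups. Krtdap, a keratinocyte differentiation gene, was -2.13, 1.34 and 1.61 in Thy-1-CD24medCD49fhigh cells and -1.64, 2.69 and 2.58 in CD24medCD49fmed cells. Replicate 1 was low in both groups, also for Krt1 (-1.74 and -1.46) and Krt77 (-2.11 and -2.33), keratins of the upper epidermis. Of 13 genes 10 were below 0 (76.9%, against 58.8% of all rows), with a median of -0.62. The median was -0.02, -1.26 and -0.50 in the pairs and -0.23 without replicate 2. At an unadjusted limma p under 0.05, 4 were lower (30.8%, against 2.32%), and 5 were lower in all 3 pairs (38.5%, against 9.76%). Dsg1a, a desmoglein gene, had the largest difference (-1.25).

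**Figure D5:**
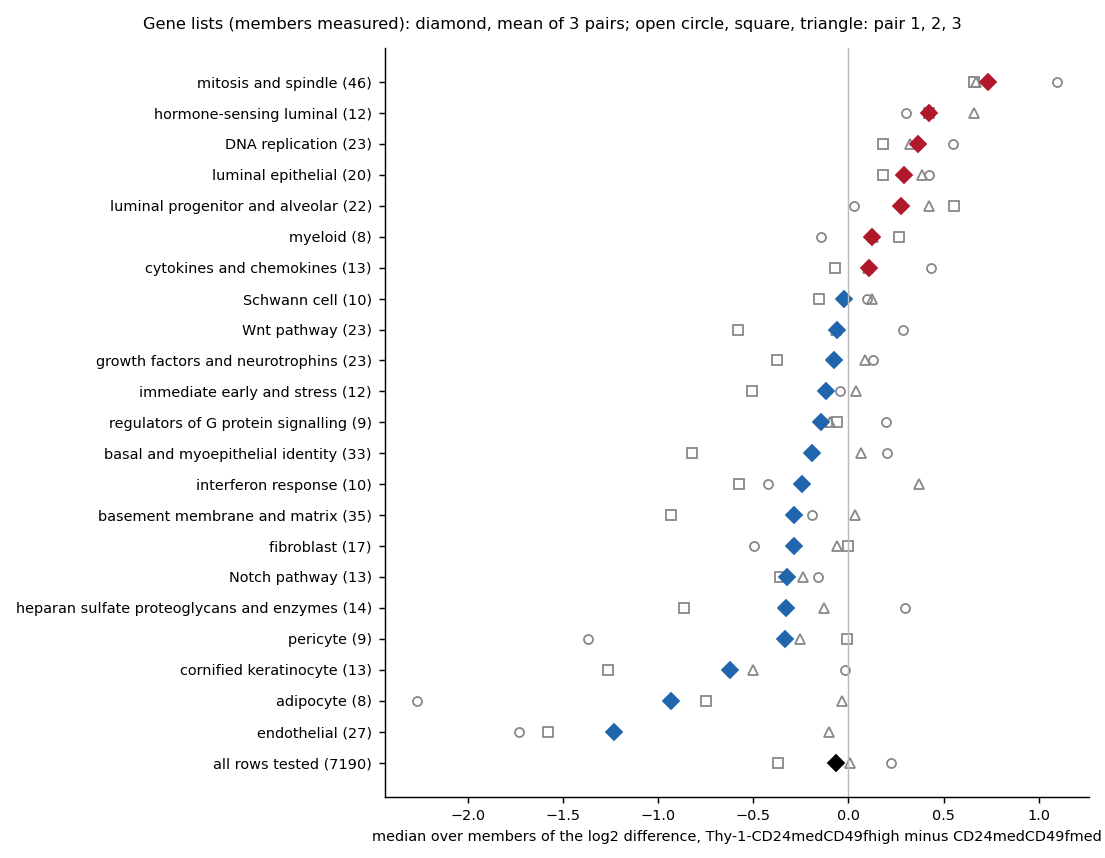
Median over the measured members (in brackets) of the log2 difference for 22 gene lists and for all rows. Diamonds are the mean of 3 pairs, and open circles, squares and triangles are pairs 1, 2 and 3. The mitosis list (0.73) lay above the all-row median (-0.07) in each pair, and the endothelial (-1.23) and adipocyte (-0.93) lists had their pair 3 near 0.

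The Wnt, Notch and growth factor lists had medians below 0, as did all rows (-0.07). Of 23 Wnt pathway genes 10 were above 0 (43.5%, against 41.2% of all rows, median -0.06). Without replicate 2 there were 16 above 0 (69.6%, against 63.4% of all rows, median 0.098). The difference was -0.98 for the receptor gene Fzd4, -0.64 for Lgr4, a receptor of R-spondins, and 0.45 for Rnf43, which removes Wnt receptors from the surface. Notch pathway genes were below 0 in 12 of 13 (92.3%, against 58.8% of all rows, median -0.32, with -0.16, -0.36 and -0.24 in the pairs) at no unadjusted limma p under 0.05. In pairs 1, 2 and 3 alone 8, 9 and 8 of the 13 were below 0, where 29.9%, 69.3% and 49.2% of all rows were. Only 2 of the 13 were lower in all 3 pairs (15.4%, against 9.76% of all rows). Notch4, a receptor of endothelium, had -0.76, the Notch target Hey1 -0.63, and Lfng, which modifies Notch receptors, 0.10. Of 23 growth factors and neurotrophins 16 were below 0 (69.6%, against 58.8% of all rows, median -0.08). Without replicate 2 there were 18 above 0 (78.3%, against 63.4% of all rows, median 0.13). Immediate early and stress genes had 9 of 12 below 0 (75.0%, against 58.8%, median -0.12), and 5 of 12 without replicate 2 (41.7%, against 36.6%, median 0.064). The early growth response gene Egr3 had -0.66. Fibroblast genes were below 0 in 15 of 17 (88.2%, against 58.8%, median -0.29), and in 9 of 17 without replicate 1 (52.9%, against 66.6%, median -0.029). The largest besides Fbln2 was Col3a1, a collagen gene of connective tissue (-0.93). Schwann cell genes had 4 of 10 above 0 (40.0%, against 41.2%, median -0.02), and 8 of 10 without replicate 2 (80.0%, against 63.4%, median 0.11). Myeloid genes had 7 of 8 above 0 (87.5%, against 41.2%, median 0.12), but 2 of 8 in pair 1 alone (25.0%, against 70.1%, median -0.15). Without replicate 1 their median was 0.33. The 1 below 0 in the mean was Ptprc, the gene of the lineage antigen CD45 (-0.49).

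The study's own gene lists were picked in part on these arrays, and the strain-specific lists come from comparing both strains, so none of them is independent evidence of direction. Of 15 measured genes on its Thy-1-CD24medCD49fhigh list for both strains, 15 were above 0 (median 1.10), and of 53 listed in C57BL6 alone 51 were (median 0.89). Of 20 listed in FVB mice alone, which leaves out genes listed from these arrays, 14 were above 0 (median 0.29), and 1 was higher and 1 lower at an unadjusted limma p under 0.05 (5.0% each, against 1.66% and 2.32%). For CD24lowCD49fmed cells 4 of 4 in both strains and 54 of 54 in C57BL6 alone were below 0 (medians -0.95 and -1.20), with Etv5, a transcription factor gene of FGF signalling, at -0.73. Of 14 in FVB alone 9 were (median -0.18), and the highest difference among these 14 was that of Il33 (1.87), which is also on the Thy-1-CD24medCD49fhigh list of C57BL6 mice.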

How the data were processed

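The authors deposited 1 table of log2 values from 14 arrays: robust multichip average (RMA) normalization in MIDAS, a signal filter and a 4-fold filter in Cluster 3.0, and mean-centring of each probe set. GCRMA is a further name in the submitters' processing notes. Versions were not given in the sources used here. Levels between genes and a filter on dim signals were therefore not possible, and the number of arrays limits the precision.

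The 9645 probe sets included 8499 with 1 gene symbol, averaged to 6044 genes, and 199 with several and 947 with no symbol, kept as rows. Probe sets of the same gene could differ, and their values are given for some genes only. Probe sets matched the RefSeq gene table by Entrez ID for 8482 of the 8499. limma 3.58.1 in R 4.3.3 was fitted to the 6 arrays with the replicate number (3v taken as 3) as a fixed block and eBayes, and also without the block. Arrays of the same number deviated together from their group means (r = 0.374, 0.328 and 0.558), while other numbers gave -0.297 to -0.066, so the block was kept. An exact permutation test could not go below 0.1 (3 against 3) or 0.25 (3 pairs) and was not used. Rank products were computed in Python 3.11.15 from all pairs of arrays of the 2 groups and 100 permutations within arrays. Scripts were tested on simulated data. Figures used matplotlib 3.10.9.

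The comparison, its leading genes and the gene lists were chosen with earlier results of these data known. Lists were described by counts and medians, with no test. Genes were named by rule (125 in all, of which the text prints those that show each group): 5 given with the comparison, the 12 smallest p each way with 1 sign in 3 pairs, up to 4 largest members and the first 3 lineage markers of each list, genes the study lists in both strains, and the 5 widest gaps each way. Named outside this rule, after their values were seen, were Acta2, Btn1a1, Cdc20, Cdk1, Ect2, Lalba, Lama4, Lamb1, Lamc1, Lep, Lfng, Ltf, Mki67, Tnfaip2, Trp63, Ube2c, Usp18 and Vwf. Alternatives were a random block, 9 basal arrays in 1 fit, array weights, a robust prior, single probe sets, centring of arrays, quantile normalization, a minimum difference of 1, rank products and leaving out pairs or arrays.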

Additional observations from a re-analysis of the deposited data

How the results depend on the processing

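The count of rows past an adjusted p of 0.05 was 0 in both main fits, with the replicate block and without it, so pairing the arrays changed no call. It was also 0 with the block as a random effect (consensus correlation 0.1904), with the 9 basal arrays, a robust prior, single probe sets, median centring, quantile normalization (smallest adjusted p 0.1292) or a minimum difference of 1. Rank products at an unadjusted p under 0.01 gave 162. Array weights with the block gave 1904 (943 higher, 961 lower), from weights of 0.515, 0.278 and 6.984 for pairs 1, 2 and 3 whose estimation did not reach its tolerance. Leaving out each pair gave 0 to 94 calls. Without replicate 2 it was 94 of 7190 rows (36 higher, 58 lower). These held 12 of the 46 mitotic genes, all higher and including Nusap1. They also held 10 of the 27 endothelial genes, 9 lower and 1, Vwf, higher. Without replicate 3 it was 20 of 7190 rows (Il33 higher, 19 lower, including Aqp7 and 5 of the 27 endothelial genes). These fits have 1 residual degree of freedom, and without replicate 3 limma gave every gene the same SE. Without the block, leaving out each array gave 0 to 1, the 1 being Aqp7 (-5.05, adjusted p = 0.0452) without CD24medCD49fmed replicate 3. The cause was not tested.

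All 98 genes checked, which include those given here with values, kept their direction without the block, with 9 basal arrays, after median centring and after quantile normalization. Array weights turned Krt5 (0.077), Pecam1 (0.26), Cdh5 (0.0032) and Lfng (-0.0064). Leaving out 1 pair turned Krt14 (-0.79 to 0.0049), Krt5 (-0.88 to 0.082), Krt17 (-1.35 to 0.16) and Myl9 (-1.45 to 0.12) without replicate 2, and Vwf (-0.23 to 1.2) and Lep (-0.12 to 0.38) without replicate 1. Of the list medians, quantile normalization moved luminal epithelial to 0.60 and hormone-sensing genes to 0.74. Leaving out 1 pair gave ranges of 0.22 to 0.43 for luminal epithelial, 0.37 to 0.65 for hormone-sensing and -0.090 to 0.083 for RGS genes. The mitosis median ran from 0.70 to 0.88 and the endothelial one from -1.64 to -0.83 over the same alternatives. A choice made after seeing the data, counting members under each setting, put 44 to 46 of 46 mitotic genes above 0 and 25 to 26 of 27 endothelial genes below 0 when 1 pair was left out.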

Other observations

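Some of the clearest separations between the groups were in genes of no pathway or cell type list. Atp6v1b1, a proton pump subunit gene, was -0.88, -0.73 and -0.56 in Thy-1-CD24medCD49fhigh cells and -1.62, -1.47 and -1.49 in CD24medCD49fmed cells (difference 0.81, SE 0.31, limma adjusted p = 0.9992), so that the gap between the groups was wider than the spread within either of them. Foxq1, a forkhead transcription factor gene, was -0.73, 0.62 and -0.65 against -1.55, -1.41 and -1.23 (1.15). In the opposite direction, Qpctl, a glutaminyl cyclase gene, was -0.38, -0.96 and -0.50 against 0.02, 0.01 and 0.34 (-0.73), and Ypel2 was -0.04, 0.00 and -1.84 against 0.50, 0.54 and 0.32 (-1.08). For Unc45b, a myosin chaperone gene of muscle, the groups overlapped, at 0.41, -0.53 and -1.27 against 3.12, 1.02 and -0.82 (-1.57). Within each group replicate 1 was highest and replicate 3 lowest, as for the endothelial medians.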
